A study of Mus musculus with 4 samples.

Results

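The cells described here carried Ly6a transcripts and, in most of them, Cd34, together with genes of connective tissue fibroblasts, and they were picked from droplet RNA profiles of single Td+ cells of the endosteal marrow. A cell was taken when it had 200 to 6000 genes and at most 5% of its UMIs (unique molecular identifiers, counts of captured RNA molecules) from mitochondrial genes, at least 2 UMIs of Ly6a, and a UMI of at least 3 of the 5 genes Mfap5, Clec3b, Pi16, Dpt and Cd34. It also had to have 0 UMIs of Ptprc, a leukocyte gene, and of the endothelial genes Cdh5 and Pecam1, and Adipoq, an adipocyte gene, below 8 per 10000 UMIs. These limits left 314 of the 24084 cells that passed the limits on genes and mitochondrial UMIs, out of 27907 barcodes in all. The study gives the name early mesenchymal progenitors to a cluster that expressed Ly6a (Sca1), Cd34 and Thy1. The rule used here left out Thy1 and added Mfap5, Clec3b, Pi16 and Dpt, so the 2 sets of cells need not be the same. Progenitor function was not measured in these data, so the cells are called Ly6a+Cd34+ cells here after 2 of the rule's genes. Cd34 was not required: 123 of 131, 115 of 121, 32 of 39 and 22 of 23 cells at 1, 1.5, 3 and 16 months had a Cd34 UMI.

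The 4 libraries came from male Col2:Td mice (strain label B6SJL/F1), in which a Cre recombinase driven by the Col2 promoter switches on the red reporter tdTomato, listed as tomato in the tables, in the descendants of cells that once used the promoter. All 4 ages carry the same 2 alleles, and no group was treated. The groups are 1 month (2 mice), 1.5 months (3 mice), 3 months (3 mice) and 16 months (3 mice), and the mice of an age were pooled into 1 library. The question behind the design is how the mesenchymal cells of the marrow are composed in young mice and how this differs in adult and aged ones. With 1 library per age there is no replicate, no test was made, and age cannot be told apart from anything else in which the libraries differ. Every interval below is a 95% interval that covers counting error only.

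Ly6a encodes Sca-1, a surface protein widely used to sort stem and progenitor cells from mouse tissues, and CD34 is a surface sialomucin found on blood stem cells, endothelium and fibroblast progenitors. In several mouse tissues, fibroblasts that express Ly6a, Cd34, Pi16 and Dpp4 lie around vessels and in fascia and can give rise to other fibroblasts and to fat cells. Marrow stroma of the adult mouse, in contrast, is known for cells rich in Lepr, Cxcl12 and Adipoq, which make the factors that hold blood stem cells in place.

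The 4 tables held 4516 to 9229 barcodes each. The smallest cell that passed the filter had 4859, 3038, 2451 and 500 UMIs at 1, 1.5, 3 and 16 months, so the depth at which a barcode was kept differed between libraries. Libraries shared from 1 to 61 barcodes per pair, and no barcode was a Ly6a+Cd34+ cell in both libraries of a pair. Shared barcodes that were a Ly6a+Cd34+ cell in either library of a pair did not have identical profiles. The profiles of the other shared barcodes were not compared. The 1, 1.5 and 3 month tables list 27999 genes each and that of 16 months lists 31054, and genes were compared between ages over the 26600 genes in every table.

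Ly6a+Cd34+ cells numbered 131, 121, 39 and 23 from the youngest to the oldest library. They made up 1.58% (1.32 to 1.87) of the filtered cells in the 1 month library and 2.22% (1.84 to 2.65) in the 1.5 month library. In the 3 and 16 month libraries the share was 0.933% (0.664 to 1.27) and 0.374% (0.237 to 0.561). The intervals of 1 and 1.5 months overlap, that of 3 months lies below both, and that of 16 months lies below all others. Because the number of blood cells in the sort differed widely between libraries, the share was also taken over 4 stromal gates. These gates are a part of the stromal cells, as osteoblasts, osteocytes and chondrocytes had no gate. For this, 3 other sets of cells were gated: Adipoq-high cells (Adipoq at 8 or more per 10000 UMIs), Ostn/Aspn/Tnn cells (at least 3 of Ostn, Aspn, Tnn, Edil3 and Dkk3 with 2 or more UMIs) and Nov/Nppc/Tnmd cells (at least 2 of these 3 genes with 2 or more UMIs). All 3 sets passed the same cell filter, had 0 UMIs of Ptprc, Cdh5 and Pecam1, and left out the Ly6a+Cd34+ cells. The Ostn/Aspn/Tnn and Nov/Nppc/Tnmd cells also had Adipoq below 8 per 10000 UMIs. A cell that met both of these gates was counted as Nov/Nppc/Tnmd only. Over the 4 gates together the share was 23.5% (20.02 to 27.2) of 558 cells at 1 month and 6.73% (5.62 to 7.99) of 1798 at 1.5 months. It was 6.24% (4.47 to 8.43) of 625 cells at 3 months and 0.803% (0.509 to 1.20) of 2866 at 16 months. The 2 denominators disagree about 1 and 1.5 months, and both put the 16 month library lowest. Adipoq-high cells made up 26.3%, 61.7%, 50.4% and 95.7% of the same gates, in the order of age. The share over the 4 gates therefore also moves with the number of Adipoq-high cells recovered.

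**Figure D1:**
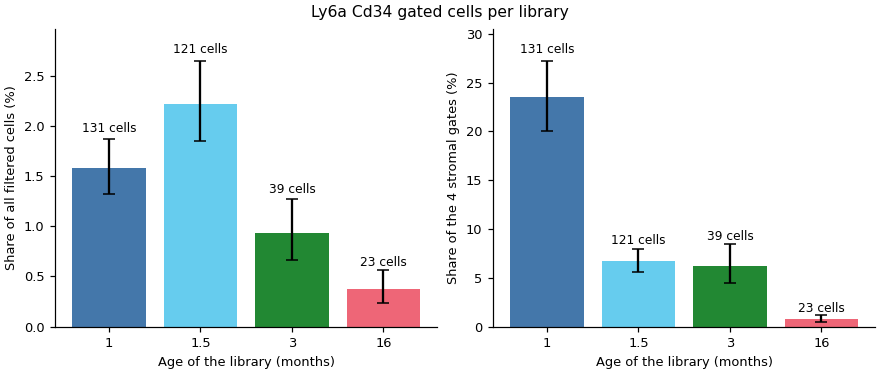
Ly6a+Cd34+ cells per library, as a percentage of all filtered cells (left) and of the cells in the 4 stromal gates (right). Bars start at 0, error bars are exact 95% binomial intervals, the number above each bar is the number of cells, and each bar is 1 library. The 16 month bar is the lowest on both sides, at 0.374% and 0.803%.

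The rule needs UMIs, and the cells differed in depth. Median UMIs of the Ly6a+Cd34+ cells were 7223, 8558, 3373 and 7377 from the youngest to the oldest library. When every cell was first thinned to 3000 UMIs and shallower cells were left out, the shares were 1.29%, 1.89%, 0.517% and 0.231%, so the order of 3 and 16 months below the younger libraries was the same at equal depth. At the edges of the rule, 10, 4, 2 and 2 cells were inside with 2 Ly6a UMIs, and 14, 2, 6 and 1 cells stayed outside with 1. Cells inside with 3 of the 5 other genes numbered 36, 19, 22 and 10, and cells outside with 2 of the 5 numbered 23, 20, 9 and 8. The Ptprc limit kept out 48 cells at 1 month and 0 in the other libraries, and the mitochondrial limit kept out 1, 1, 3 and 12.

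The genes of the rule chose the cells, so their levels are a description. Levels are UMIs per 1000000 (CPM). They were taken from the summed UMIs of all Ly6a+Cd34+ cells in a library (1088901, 1113988, 160343 and 180363 UMIs), and a count of 3 UMIs equals 2.76, 2.69, 18.7 and 16.6 CPM. Ly6a (chromosome 15, 74994877 to 74998031, minus strand, all positions on GRCm38) stood at 1924, 2740, 2969 and 1308 CPM from 1 to 16 months. Cd34 (chromosome 1, 194938819 to 194961279, plus strand) was nearly level at 463, 586, 505 and 505 CPM. Clec3b, which encodes the plasminogen-binding protein tetranectin (chromosome 9, 123150946 to 123157432, plus strand), had 2017, 3043, 3330 and 1868 CPM. Mfap5, a microfibril protein (chromosome 6, 122505845 to 122529290, plus strand), had 890, 1089, 780 and 649 CPM. Dpt, the matrix protein dermatopontin (chromosome 1, 164796644 to 164824266, plus strand), had 1032, 1358, 611 and 455 CPM. None of these was 2-fold or more above or below every other library at 16 months.

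Pi16, a peptidase inhibitor that marks adventitial fibroblasts, was the rule gene seen least often (chromosome 17, 29317680 to 29330593, plus strand). Its level was 84.5, 187, 212 and 99.8 CPM, and 13.7%, 15.7%, 20.5% and 8.70% of the Ly6a+Cd34+ cells had a UMI. Neutrophil-gene-high cells, a gate of cells with 500 or more of 6 neutrophil genes per 10000 UMIs, also carried Pi16. At 3000 UMIs per cell their shares were 22.7%, 23.1%, 20.3% and 31.7% against 8.40%, 9.92%, 20.8% and 8.70% in the Ly6a+Cd34+ cells, so the share in the Ly6a+Cd34+ cells was the lower one at 1, 1.5 and 16 months and about equal at 3 months. The other stromal gates had at most 7.57 CPM of Pi16 in any library. The UMIs were held by few cells, with 47.8% and 51.9% of them in a single cell at 1 and 1.5 months. The reporter tomato stood at 3597, 4393, 5470 and 3343 CPM in the Ly6a+Cd34+ cells and at 2807, 2889, 2680 and 658 CPM in neutrophil-gene-high cells, so its level separates these 2 kinds of cell by a wide margin in the 16 month library and by less in the others.

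Genes outside the rule showed what else the cells held. A gene was counted as higher when it was at 100 CPM or more in the Ly6a+Cd34+ cells of every library and at least 2-fold above all 3 other stromal gates in all 4 libraries. This held for 31 of 881 genes (3.52%), 5 of them rule genes, and the opposite held for 4 of 672 (0.595%). The gates were set on this same contrast, so these counts say nothing about the cells beyond a description. They are shown because they name the other genes of the cells in 4 libraries at once.

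Ly6c1, a neighbour of Ly6a in the Ly6 cluster, led the genes outside the rule with 989, 1846, 1428 and 632 CPM, against at most 85.6 CPM in any other stromal gate. The Ly6 genes are near copies of each other, so their UMIs could be split or swapped in counting, and Ly6c1 is no independent sign of Ly6a. Of surface proteins, Cd248 (endosialin, a fibroblast and pericyte protein) stood at 231, 209, 168 and 200 CPM against at most 21.9 in the others. Ackr3, a scavenging receptor for the chemokine CXCL12, had 106, 153, 237 and 194 CPM against at most 36.4. Dpp4 itself, the surface peptidase that names the Pi16 and Dpp4 fibroblasts of other tissues, was scarce. It was found in 17, 14, 2 and 4 of the Ly6a+Cd34+ cells.

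A group of 5 genes of hyaluronan production and binding was among the 31. Has1, which makes hyaluronan at the cell surface, had 274, 418, 692 and 299 CPM, with 31.7 CPM as the highest value in any other stromal gate. Ugdh, which makes the glucuronic acid precursor, had 1561, 910, 898 and 499 CPM. Uap1 and Gfpt2, which work on the way to the N-acetylglucosamine precursor, were 501, 496, 462 and 615 CPM and 202, 129, 150 and 377 CPM. Tnfaip6, whose product TSG-6 binds and crosslinks hyaluronan, had 1497, 1075, 923 and 1153 CPM. The 5 genes were grouped after their values were seen. All 4 libraries held the 5 genes at 100 CPM or more, and the smallest ratio to another gate was 11.2 for Has1, 5.003 for Ugdh, 2.99 for Tnfaip6, 2.62 for Uap1 and 2.55 for Gfpt2.

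Of the matrix genes, Tnxb (tenascin-X, which stabilises collagen in loose connective tissue) had 314, 298, 424 and 460 CPM against at most 28.1 in the other gates. Col14a1, a collagen that sits on the surface of fibrils, had 422, 338, 274 and 477 CPM, Fbln2 (fibulin-2) 134, 218, 318 and 416, and Pcolce2, an enhancer of procollagen processing, 556, 323, 723 and 510. Prg4 (lubricin, the joint lubricant) is taken up below with the differences between cells. Gsn, an actin-severing protein with a secreted form, was the most abundant of the 31 genes at 6658, 7825, 17244 and 19644 CPM. Among 16 genes of the Pi16 and Dpp4 fibroblast programme, 8 were at 100 CPM or more in every library of the Ly6a+Cd34+ cells. These 8 were among the 31 higher genes (3.52% of all compared): Gsn, Tnfaip6, Has1, Creb5, Scara5, Gfpt2, Ackr3 and Anxa3. Genes entered only through their level in these cells, and the rule that chose the cells includes Pi16, so the count is a description. Anxa3 had the smallest margin at 2.01, and neutrophil-gene-high cells held more of it (241 to 305 CPM) than the Ly6a+Cd34+ cells (105 to 206 CPM).

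Of regulators, Osr2, a limb mesenchyme transcription factor, had 189, 209, 212 and 105 CPM against at most 26.8 in other gates, and Creb5 had 405, 218, 200 and 233 against at most 64.3. Atf3, a stress-induced factor, had 685, 739, 543 and 1131 CPM, and Celf2, an RNA-binding protein, 130, 126, 143 and 327. Tppp3, which marks tendon sheath cells and some fibroblast progenitors, had 1832, 1997, 1746 and 566 CPM against at most 436. The 4 lower genes were the actin filament genes Tpm1 and Cnn2, the adhesion gene Cdh11 and the growth factor Mdk. Mdk stood at 117, 67.3, 24.9 and 144 CPM in the Ly6a+Cd34+ cells and at 265 or more in every other stromal gate.

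**Figure D2:**
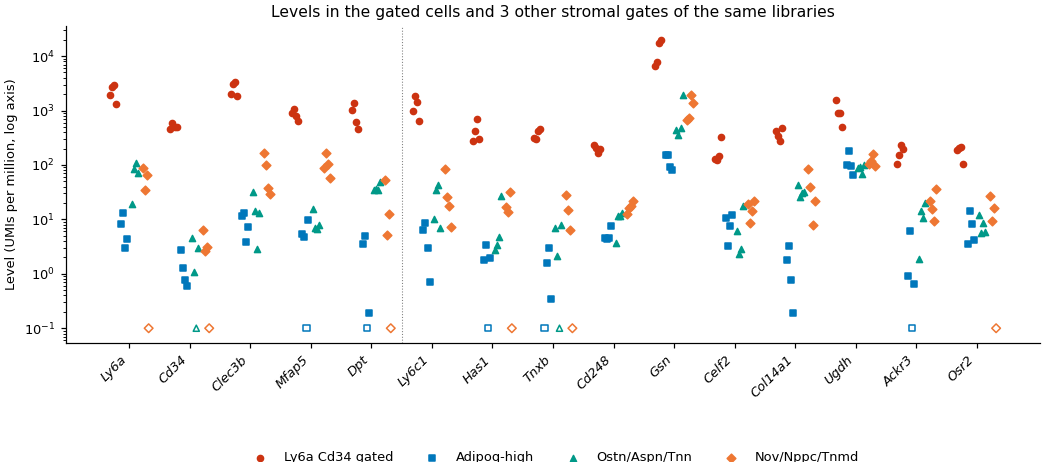
Levels of 5 rule genes (left of the dotted line) and of the 10 genes outside the rule with the largest smallest ratio, in CPM on a log axis. Each symbol is 1 gate in 1 library, and libraries run from 1 to 16 months from left to right within a gate. Open symbols at the bottom mark a level of 0. The red circles of the Ly6a+Cd34+ cells lie above the symbols of the 3 other gates for every gene, from 11.6-fold for Ly6c1 to 4.82-fold for Osr2 among the genes outside the rule.

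The lineage transcription factors Sp7, Runx2, Pparg and Cebpa were low, while whole lists of lineage genes were not. The osteogenic list, led by Bglap, summed to 1664, 9968, 723 and 1048 CPM, against 2004, 9232, 2838 and 1690 in neutrophil-gene-high cells. The adipogenic and marrow stroma list summed to 2425, 2495, 3037 and 6820 CPM, against 2814, 4881, 4444 and 7474 there. The chondrocyte list summed to 1362, 6957, 7128 and 1813 CPM, against 783, 7419, 907 and 69.9 there. In the Ly6a+Cd34+ cells Prg4 alone made up 597, 1403, 5694 and 1031 CPM of the chondrocyte sums. At 3 months 53.9% of the Prg4 UMIs came from 1 cell. Sp7, the osteoblast factor osterix, had 5.51 and 14.4 CPM at 1 and 1.5 months and 0 UMIs at 3 and 16 months, which allows up to 18.7 and 16.6 CPM. Runx2, which acts earlier in the same lineage, had 9.18, 20.6, 24.9 and 22.2 CPM. Pparg, the master factor of fat cells, had 5.51, 1.80, 18.7 and 22.2 CPM, and Cebpa 17.4, 19.7, 37.4 and 44.4. Genes of vessels, nerve and muscle were near 0 as well, while those of blood cells were not and are given below: 6 endothelial genes summed to 18.7 to 37.7 CPM, 5 mural genes to 18.7 to 66.5, and 7 Schwann and muscle genes to 42.2 to 87.3, with no gene of these lists at 100 CPM in any library. Of 15 cell cycle genes none reached 100 CPM, and their sum was 470, 120, 125 and 83.2 CPM.

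Genes that have been proposed as markers of skeletal progenitors differed widely in level. Prrx1, a limb mesenchyme factor, had 325, 239, 299 and 394 CPM and Pdgfra, a growth factor receptor, 108, 148, 150 and 510. Gli1 (5.51, 3.59, 0 and 33.3 CPM) and Grem1 (4.59, 6.28, 0 and 11.1 CPM) were at or near the level of a few UMIs. Itgav was between 31.2 and 61.0 CPM, and Cd200 was 17.4, 62.8, 31.2 and 105 CPM. Of the 13 genes, 6 reached 100 CPM in some library. Lepr, Cxcl12 and Thy1, which belong to the same list, differed at 16 months and are described next.

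A gene was counted as higher at 16 months when the Ly6a+Cd34+ cells of that library were at least 2-fold above the highest of the other 3, and as lower when they were at least 2-fold below the lowest, among 2001 genes at 100 CPM in any library. There were 200 higher genes (10.0%) and 180 lower genes (9.0%). Between the near ages of 1.5 and 1 month, 129 genes (6.45%) were 2-fold higher and 103 (5.15%) 2-fold lower. At 3 months 66 (3.30%) were 2-fold above and 63 (3.15%) 2-fold below both. These counts show differences between libraries without a wide gap in age, but they are not on the same scale as those of 16 months. They had fewer libraries to pass, the 16 month library held the fewest cells, and genes could enter by reaching 100 CPM at 16 months alone. Of the 200 genes, 127 were also higher at 16 months in at least 1 of the other gates (the 3 stromal gates and the neutrophil-gene-high cells), 73 in none and 19 in all 4. The Nov/Nppc/Tnmd gate shared the most of the 200, at 97, but held only 11 cells at 16 months. No gate other than the Ly6a+Cd34+ cells was computed without its leading cell. A gate under 100 CPM in every library was not compared, so a gene higher in none of the gates may have been too low there. With 23 cells at 16 months a single cell weighs heavily, so each higher gene was also computed without the 16 month cell that held the most of its UMIs. By that measure 140 of the 200 remained 2-fold higher, 44 of them in no other gate.

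Some of the widest differences were shared by all cells of the library. The ribosomal RNA-like gene Gm42418 was at 271, 160, 318 and 15790 CPM in the Ly6a+Cd34+ cells, and at 12429 to 19596 CPM in the other 4 gates at 16 months. Lars2 and AY036118 were also higher in all 4 other gates, AY036118 by 5.38-fold to 11.6-fold. Atp5o, at 418, 356, 312 and 0 CPM, was at 0 in all 4 other gates of the 16 month library as well, and Rpl13a, at 3229, 2602, 2382 and 139 CPM, was lower in all 4. The 16 month table lists a different set of genes, and the part of this in these differences was not tested.

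Lepr (chromosome 4, 101717404 to 101815352, plus strand), the leptin receptor, was at 11.0, 11.7 and 24.9 CPM in the younger libraries and at 283 (210 to 372) at 16 months. The 16 month value stands apart from the other 3, which do not differ beyond their counting intervals. It was 11.3-fold above the highest of them, and 8.85-fold without the cell with the most Lepr UMIs. The fold was 24.2 without the 3 month library, 6.90 without the cells above 2 times the median UMIs, 4.63 with 4 of the 5 genes required and 4.52 in cells thinned to 3000 UMIs. At 3000 UMIs per cell, 39.1% of the Ly6a+Cd34+ cells had a Lepr UMI at 16 months, against 6.11%, 1.65% and 8.33% before, and 47.8% had one before thinning. In neutrophil-gene-high cells of the same library the thinned share was 11.6%, though neutrophils should lack Lepr. Lepr was higher at 16 months there too, as it was in Adipoq-high and Nov/Nppc/Tnmd cells (11 of the latter at 16 months). Transcripts of Adipoq-high cells were thus found at some level in neutrophil-gene-high cells of that library. The neutrophil-gene-high gate had no limit on Adipoq, so a cell could belong to it and to the Adipoq-high gate. How these transcripts were spread over its cells was not tested.

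The level of such transcripts was described by the ratio to Adipoq-high cells, gene by gene, in the 16 month library. In neutrophil-gene-high cells, Adipoq, Cxcl12, Lpl, Kitl, Apoe, Lepr, Foxc1, Ebf3 and Ebf1 all lay between 8.56% and 11.5% of their Adipoq-high level. In the Ly6a+Cd34+ cells they did not keep one ratio. Adipoq was at 3.15% (1.57 to 5.64), which the rule limits, and Kitl, the stem cell factor gene, at 6.82% (4.17 to 10.5). Cxcl12, the chemokine that retains blood stem cells, was at 9.82%, and at 4.10% without the cell that held the most of the Adipoq-high genes. Lpl, a lipase of fat cells, was at 12.7% (9.94 to 15.9) and Apoe, a lipid carrier, at 11.8% (10.1 to 13.6), against neutrophil values of 8.57% and 9.27%. Lepr was at 30.5% (22.7 to 40.1), Foxc1, a transcription factor of marrow stroma, at 45.2% (31.7 to 62.6) and Ebf1, an early B cell factor also used by stroma, at 87.6% (73.0 to 104). In the 19 cells without an Adipoq UMI, Lepr was at 26.6% (18.6 to 37.0), Foxc1 at 44.7% (29.7 to 64.6) and Cxcl12 at 4.26% (3.63 to 4.97). Lepr, Foxc1 and Ebf1 thus lay above the ratio seen in neutrophil-gene-high cells, with intervals that do not overlap it. Lpl and Apoe lay above it by a narrow margin, also without overlap, and Cxcl12 and Kitl were at or below it.

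**Figure D3:**
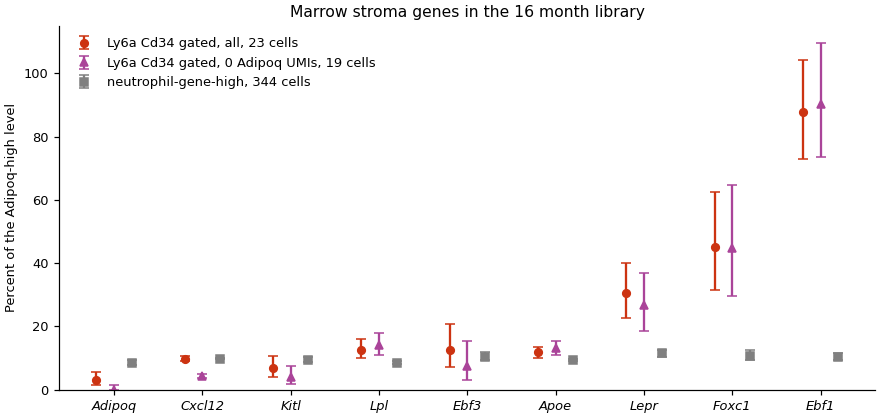
Level of 9 marrow stroma genes in the 16 month library as a percentage of their level in Adipoq-high cells, for all 23 Ly6a+Cd34+ cells, for the 19 of them with 0 Adipoq UMIs and for 344 neutrophil-gene-high cells. Error bars are 95% Poisson intervals of the counts. The grey squares stay near 10% for every gene (8.56% to 11.5%), while Lepr, Foxc1 and Ebf1 are above them in the Ly6a+Cd34+ cells.

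Among 10 measured genes of the adipogenic and marrow stroma list, 6 were higher at 16 months and 4 of the 6 remained so without the leading cell (Lepr, Kitl, Foxc1 and Lpl), beside the 10.0% over all genes tested. Lepr, Kitl, Foxc1 and Ebf2 reached 100 CPM only at 16 months and were measured for that reason, so the count is a description. Kitl rested on 4 cells, and Cxcl12 was not among those that remained: its 189, 902, 524 and 2600 CPM gave a 2.88-fold difference, but 62.3% of the 16 month UMIs came from 1 cell, and without it the value was 1.20-fold. It was 4.96-fold without the 1.5 month library. Lpl was at 106, 97.8, 118 and 405 CPM. Ebf2, a factor of fat cell precursors, was at 45.9, 48.5, 99.8 and 205 CPM, 2.06-fold higher and 1.85-fold without the leading cell, and was at 14.6 CPM in Adipoq-high cells of the same library. Ebf1 was level, at 681, 445, 817 and 699 CPM. The median log2 ratio of the 16 month library to the mean of the others was 1.79 over the 10 genes and -0.26 over all genes tested.

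Chemokine and complement genes gave the largest count of any list, with 8 of 14 measured genes higher and Ccl7 lower at 16 months, beside 10.0% and 9.0% of all genes tested. Without the leading cell 5 of the 8 were 2-fold higher. Ccl11 and Cfb were measured only because they reached 100 CPM at 16 months. The median log2 ratio was 1.73, against -0.26 over all genes tested. The complement proteases and factors C1s1 (115, 214, 249 and 621 CPM) and Cfb (11.0, 37.7, 68.6 and 161 CPM) remained 2-fold higher without the leading cell. C3, the central complement protein, at 61.5, 265, 318 and 732 CPM, and C4b, at 57.9, 279, 187 and 660 CPM, did not, at 1.94-fold and 1.81-fold. C3 was also found in neutrophil-gene-high cells, at 135 to 347 CPM.

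Of the chemokines, Ccl11 (eotaxin, which attracts eosinophils) had 21.1, 16.2, 31.2 and 177 CPM, and it was at 0.413 CPM in Adipoq-high cells and at 0 in neutrophil-gene-high cells at 16 months. Cxcl14 had 127, 803, 786 and 2146 CPM. Ccl7, a monocyte attractant, went the other way at 378, 491, 462 and 49.9 CPM. Cxcl10 and Cxcl9, which interferon induces, were outside the list and among the 10 widest ratios of all genes. Cxcl10 had 118, 26.0, 37.4 and 2711 CPM, from 8 cells at 16 months with 49.9% in 1 of them, and Cxcl9 rested on a single cell with 98.3% of its UMIs. The list also differed between the 2 young libraries: 8 of its genes were 2-fold higher at 1.5 months than at 1 month, beside 6.45% of all genes, so a difference of this kind was also found between near ages. C3, C4b and Cfb were 4.30-fold, 4.83-fold and 3.42-fold higher at 1.5 months than at 1 month, while C3 in neutrophil-gene-high cells was at 195 and 135 CPM.

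Surface proteins differed in both directions. Pdgfra, at 108, 148, 150 and 510 CPM, was 3.41-fold higher at 16 months and 3.12-fold without the leading cell, and was also higher in 2 other gates. Pdgfrb, its partner receptor, had 62.4, 53.0, 56.1 and 161 CPM. Procr, the protein C receptor, which is used as a stem cell marker in several tissues, had 73.5, 104, 150 and 316 CPM. It was 2.11-fold higher, or 1.63-fold without the leading cell, and was at 15.3 CPM or less in every other stromal gate of every library. Thy1 (chromosome 9, 44043384 to 44048579, plus strand), a surface protein of progenitors and of many fibroblasts, was at 350, 434, 193 and 66.5 CPM. The 16 month value (34.4 to 116) was 2.91-fold below the lowest of the others, a ratio of 0.344, which was 0.190 without the 3 month library and 0.198 with 4 of the 5 genes required. At 3000 UMIs per cell 49.6%, 60.3%, 37.5% and 13.0% of the cells had a Thy1 UMI, with at most 1.97% in neutrophil-gene-high cells, and before thinning 17.4% had one at 16 months. Thy1 was not lower in any other gate that reached 100 CPM. Cd34 and Cd248 stood within a factor of 2 in all 4 libraries.

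Of the matrix lists, 1 of 15 collagen genes, 1 of 15 protease and inhibitor genes, 0 of 13 elastic fibre genes and 0 of 9 proteoglycan genes were lower at 16 months, beside 9.0% of all genes tested. Col3a1, the fibrillar collagen of soft tissue, had 8376, 11247, 4179 and 1824 CPM, and it was also lower in 3 other gates, among them the neutrophil-gene-high cells. Its ratio to the lowest other library was 0.437, and 0.218 without the 3 month library. Postn, periostin, had 1360, 704, 206 and 61.0 CPM and was 3.37-fold below the lowest other library. Pcolce, an enhancer of procollagen processing, had 1847, 2227, 1603 and 782 CPM. Tppp3, which is no matrix gene, was 3.09-fold lower at 566. Col1a1 (6861, 9625, 1559 and 1885 CPM) and Col1a2 (6142, 9792, 2576 and 2656 CPM), the chains of bone and skin collagen, were low at 3 months as well and so did not stand apart at 16 months. Mfap2 had 536, 274, 118 and 61.0 CPM, and its 16 month value missed the 2-fold limit. Of the collagen genes, Col4a2 was higher, and of the elastic fibre genes Fbln5, Efemp1 and Ltbp4 were, with 1 of these 4, Ltbp4, still 2-fold higher without its leading cell.

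Other matrix proteins were at higher levels with each older library or at 16 months. Dcn (decorin) had 7432, 9933, 15523 and 19616 CPM and Cst3 (cystatin C) 2016, 2663, 5070 and 7662, neither past the 2-fold limit at 16 months. Ltbp4, which stores TGF-beta in elastic fibres, had 96.4, 127, 168 and 510 CPM. It was 3.03-fold higher, 2.81-fold without the leading cell, and at 37.6 CPM or less in every other stromal gate, too low there for a comparison. Timp3, an inhibitor of matrix proteases, had 152, 145, 187 and 566 CPM. Gdf10, a growth factor of the BMP family, had 14.7, 44.9, 112 and 272 CPM, and Igfbp5, which binds insulin-like growth factors, had 909, 1041, 2008 and 4496 CPM was 1.95-fold higher without the leading cell, and was higher in all 4 other gates too. Sfrp4, a Wnt inhibitor, peaked at 3 months with 1192, 2253, 4946 and 1037 CPM.

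Among 17 measured immediate early and stress genes, 5 were higher at 16 months, namely Fosb, Jun, Zfp36, Egr1 and Ier3, beside 10.0% of all genes tested. Ier3 was 1.78-fold higher without the leading cell and the other 4 stayed above 2-fold. Jun, for example, had 1310, 1832, 1871 and 5422 CPM. Each of the 5 was also higher in 3 or 4 of the other gates. These genes are known to respond quickly to tissue digestion, and the part of cell preparation in the difference was not tested. Of 5 measured interferon-stimulated genes none was higher, and Ifi27l2a was lower at 129, 56.6, 81.1 and 16.6 CPM.

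**Figure D4:**
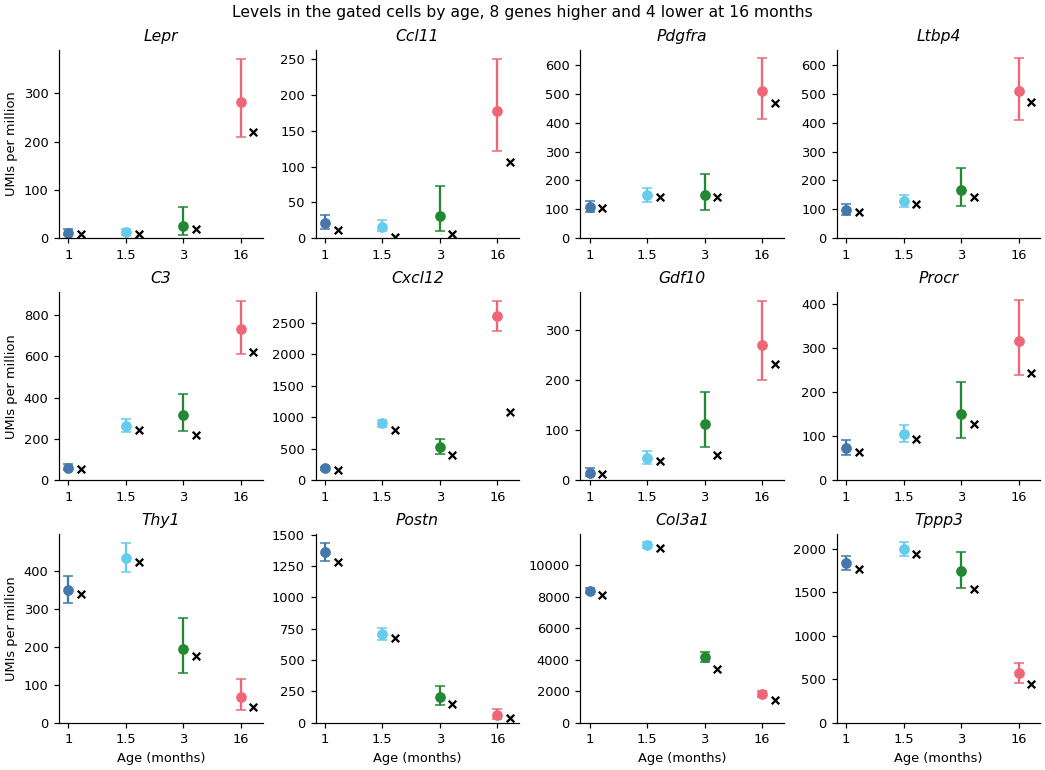
Levels of 8 genes higher and 4 genes lower at 16 months in the Ly6a+Cd34+ cells, in CPM against age in months, with evenly spaced ages. Dots are 1 library each with a 95% Poisson interval, and the black cross beside each dot is the level without the cell that holds the most UMIs of that gene. The crosses stay near the dots for Lepr, Pdgfra and Ltbp4, and the 16 month cross of Cxcl12 lies far below its dot.

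Between 1 and 1.5 months the list of chondrocyte genes stood out in count, with all 11 measured genes 2-fold higher at 1.5 months, beside 6.45% of all genes tested. Col2a1, the cartilage collagen, had 175 and 2380 CPM in the Ly6a+Cd34+ cells, but 382 and 3528 CPM in neutrophil-gene-high cells of the same libraries. Bglap, the bone protein osteocalcin, which shares reads with its near copy Bglap2, had 309 and 5546 CPM, against 819 and 5607 CPM in neutrophil-gene-high cells. Levels of Col2a1 and Bglap in the Ly6a+Cd34+ cells were therefore at or below those in neutrophil-gene-high cells (26 cells at 1.5 months), and the part of free RNA in them was not tested. The 2 later libraries had 262 and 0 CPM of Col2a1.

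Neutrophil genes also differed with the library, in another order. In the Ly6a+Cd34+ cells 9 neutrophil genes summed to 17268, 206, 20656 and 322 CPM, with S100a8 at 5272, 64.6, 5538 and 105. The 6 genes of the gate had a median of 103, 1.48, 14.6 and 3.58 per 10000 UMIs in the Ly6a+Cd34+ cells, against 102 to 109, 1.83 to 1.93, 14.5 to 16.8 and 1.14 to 1.96 in the other stromal gates, so the 16 month value lay above those of its library. At 3 months 91.6% of the S100a8 UMIs came from 1 cell, and 2 cells at 1 month and 1 at 3 months had 500 or more neutrophil-gene UMIs per 10000. Without these the 3 month S100a8 level was 509 CPM. The hemoglobin gene Hbb-bs had 5097, 1341, 262 and 211 CPM, with 60.1% and 92.3% of its UMIs in a single cell at 1 and 1.5 months. Cd74, a gene of antigen-presenting cells, had 95.4% of its 817 CPM at 3 months in 1 cell. Doublets were not removed beyond the limit of 6000 genes, and whether these cells are doublets was not tested.

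The cells also differed among themselves within a library. Over 872 genes, in cells thinned to 3000 UMIs, the median variance over mean was 1.20 to 1.22 in the 4 libraries, where counting error alone gives 1. Ranked by their lowest value over the 4 libraries, the 10 leading genes were Mt1, Malat1, Gsn, Ccl2, Tnfaip6, Mt2, Dcn, Sfrp4, Fos and Prg4. Mt1, a metallothionein that binds zinc and responds to stress, had 22.01, 19.01, 23.6 and 29.9. Ccl2, a chemokine for monocytes, had 12.2, 18.6, 70.2 and 19.7, with a UMI in 26, 41, 5 and 3 cells, and 79.8% and 90.8% of its UMIs in 1 cell at 3 and 16 months. Prg4 had 35.8, 69.7, 108 and 9.27. Its UMIs were found in 25, 59, 20 and 12 cells, with 248, 489, 492 and 39 UMIs in the leading cell. The leading cell at 3 months was also the one with neutrophil genes, and without it Prg4 was at 2857 CPM there in place of 5694. Gsn and Dcn, in contrast, were found in nearly every cell and varied in amount.

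**Figure D5:**
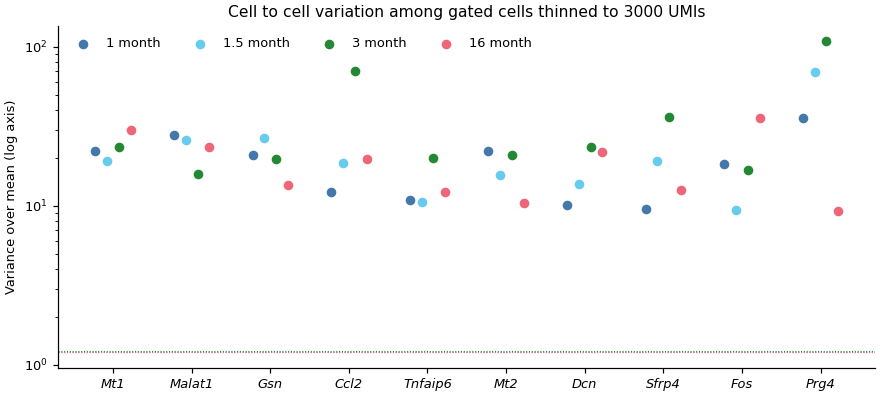
Variance over mean of UMIs among Ly6a+Cd34+ cells thinned to 3000 UMIs, on a log axis, for the 10 genes that led by their lowest value over the libraries. Each dot is 1 library and the dotted lines near 1.2 are the medians over 872 genes. Prg4 spans the widest range, from 9.27 at 16 months to 108 at 3 months.

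Which genes varied together was described in the 1 and 1.5 month libraries (131 and 121 cells), which have enough cells for it. The pairs were picked after a scan of these same cells, all cells of a library share its free RNA, and the correlations, over log2(UMIs + 1) in cells thinned to 3000 UMIs, are descriptions. Ly6a and Ly6c1 varied together across cells, with Pearson correlations of 0.61 and 0.70, with the limit on near copies given above. Ly6a and Clec3b gave 0.41 and 0.52, Has1 and Ugdh 0.47 and 0.35, Mt1 and Mt2 0.86 and 0.76, and Fos and Jun 0.79 and 0.65. Col1a1 and Col1a2 gave 0.81 and 0.86, while Col1a1 and Ly6c1 gave -0.34 and -0.29, so cells with more collagen I transcripts tended to have fewer of Ly6c1. Prg4 and Hbegf gave 0.64 and 0.60 by Pearson and 0.34 and 0.25 by Spearman, so that relation rests mainly on the few cells with much Prg4.

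Cells with a Pi16 UMI (18, 19, 8 and 2 cells) were set beside those without, a split added after the data were seen. Pi16 is a gene of the rule, so cells without it needed more of the other rule genes, and the values are a description with intervals for counting error only. Tnfaip6, which the rule did not use, was at 507 (410 to 620) against 1703 (1619 to 1790) CPM at 1 month and at 835 (709 to 977) against 1124 (1057 to 1194) CPM at 1.5 months in cells with and without Pi16. Dpp4 rested on 0 to 5 UMIs in the cells with Pi16. It was at 21.3 against 18.9 CPM at 1 month, 26.8 against 16.2 at 1.5 months, 0 against 24.7 at 3 months and 392 (107 to 1004) against 17.6 (3.64 to 51.5) at 16 months, the last from 2 cells with Pi16. The intervals overlap in the 3 younger libraries and not at 16 months. Sema3c, another gene of that programme, was at 240 (175 to 321) against 120 CPM at 1 month, and at 102 against 104 at 1.5 months.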

How the data were processed

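Td+ cells from the endosteal marrow of long bones were sorted as the brightest fraction or, where one was visible, the Td+ peak, and were sequenced with the 10x Chromium V3 chemistry. The authors aligned the reads to mm10 with the reporter added and counted UMIs with Cell Ranger 3.0.2; Seurat 2 is also named in the submitters' processing notes. The deposited values are raw UMI counts per gene and barcode, not normalized and before the filter on cells.

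From these, counts were summed per library and gate and given as CPM with exact Poisson intervals, and shares of cells with exact Clopper-Pearson intervals (Python 3.11.15, numpy 2.4.6, scipy 1.17.1, pandas 2.3.3, matplotlib 3.10.9). The limit of a gene without UMIs is 3 counts, and folds use this floor. Shares of cells with a UMI and variances use cells thinned at random to 3000 UMIs; 15 of the 39 cells at 3 months were shallower and were left out. Calls by fold were run on simulated counts that held counting error only, with changes wider than the 2-fold limit. That check says nothing about the spread among cells or about genes near the limit. Positions are those of GENCODE M21 (GRCm38).

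The cells, the gene lists and the tests were chosen with earlier results of these data known. Genes were named when they belong to the rule, are among the 4 most abundant of a list, passed the fold, were among the 10 leading genes of a comparison or by variation, or are Lepr, Cxcl12, Cebpa, Pparg, Lpl, Sp7, Runx2, Thy1 or the reporter. Tppp3, Uap1, Hbegf, Dpp4, Sema3c, Gli1, Grem1, Itgav, Cd200, Ebf3, Adipoq and, in the closing section, C7, Inmt, Vegfa, F3, Abca8a, Smoc2 and Tpt1 were named after their values were seen. The alternatives changed the rule, the depth, the fold, the minimum level and the measure of expression, and left out cells or libraries. The values of 1 gene of the complement list are not reported here.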

Additional observations from a re-analysis of the deposited data

How the results depend on the processing

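No paired analysis was possible because each age is 1 library. Of the genes followed through these changes, all past the fold before, none changed direction. Counts and shares were compared for size only. The 2 denominators of the share disagree about 1 and 1.5 months, as given above. The share of filtered cells at 1, 3 and 16 months moved to 1.14%, 0.407% and 0.212% with 4 of the 5 genes required, and to 1.29%, 0.517% and 0.231% after thinning. With Ptprc-positive cells kept, which was added after seeing the data, the 1 month share was 2.03%. The genes higher and lower at 16 months numbered 407 and 298 with a minimum of 50 CPM and 340 and 404 at a fold of 1.5. Without the 3 month library, also added after seeing the data, 274 genes were lower, and without the 16 month cell with the most UMIs of each gene, added likewise, 140 were higher. With 4 of 5 genes required, 138 of 203 higher and 119 of 236 lower genes were among the 200 and 180 found otherwise, and with cells thinned to 3000 UMIs 153 of 260 and 96 of 170. Against the other gates, 48 genes were higher at a fold of 1.5, and 7 were lower without the 1 month library (added), against 31 and 4. The other 68 values of counts and shares stayed within the limits set for them. Of the named genes, 96 values kept their side of 2-fold and 9 did not: Cxcl12 (1.97, 1.15 and 1.20), C3 (1.83 and 1.94), C4b (1.81), Col3a1 (0.514 and 0.505) and Pcolce (0.505). The causes were not tested. With 23 cells at 16 months and 18.7 and 16.6 CPM as the level of 3 UMIs in the older libraries, genes near 100 CPM there rest on few UMIs.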

Other observations

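Several genes outside the lists were higher at 16 months in the Ly6a+Cd34+ cells, and they were picked after their values were seen. Of C7, Inmt, Abca8a, Smoc2 and F3, all but Smoc2 were under 100 CPM in the other gates, which were therefore not compared for them. C7, a component of the complement membrane attack complex, had 0, 0.898, 24.9 and 211 CPM (149 to 289 at 16 months) from 1 to 16 months, from 10 of 23 cells at 16 months, and was at 0 in Adipoq-high and neutrophil-gene-high cells of that library. Its 16 month level was 8.45-fold above the highest other library and 6.65-fold without the leading cell. Inmt, an indole methyltransferase, had 1.84, 1.80, 6.24 and 133 CPM, with 37.5% of the 16 month UMIs in 1 cell. Abca8a, a lipid transporter, had 16.5, 21.5, 93.5 and 410 CPM, and the matrix protein gene Smoc2 20.2, 109, 175 and 621 CPM, 2.44-fold higher without the leading cell. F3, which encodes tissue factor, the starter of blood clotting, had 9.18, 20.6, 12.5 and 133 CPM against 3.50 CPM in Adipoq-high cells at 16 months.

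Vegfa, the vessel growth factor, had 11.9, 13.5, 6.24 and 128 CPM and was 4.94-fold higher at 16 months without the leading cell, with 284 CPM in Adipoq-high and 71.0 in neutrophil-gene-high cells of the same library. Tpt1, which encodes a protein linked to translation, had 3299, 2018, 1578 and 7174 CPM in the Ly6a+Cd34+ cells and 2279 to 5099 CPM in the other 4 gates at 16 months. Metallothionein genes, which bind metal ions, were abundant at every age, with Mt1 at 5319, 4444, 5407 and 7524 CPM and Mt2 at 4787, 4259, 3517 and 2911 CPM. Of 9 measured genes of detoxification and retinoid metabolism, 1 was lower at 16 months (Mgst3, at 235, 261, 125 and 49.9 CPM) and none was higher. Gpx3, a secreted peroxidase, was at 449, 1487, 4116 and 2373 CPM. Of 19 genes that set position in the limb, 2 reached 100 CPM in some library and neither was called at 16 months. The growth factor gene Ptn had 1966, 389, 118 and 310 CPM, with 51.8% of the 16 month UMIs in 1 cell, and the insulin-like growth factor gene Igf1 had 1086, 1309, 642 and 399 CPM.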
